A study of Mus musculus with 18 samples.

Results

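The 18 arrays of this series carry a replicate number, 1 or 2, and the 9 arrays numbered 2 were compared with the 9 numbered 1. Each side held 1 array of every combination of 3 genotypes (WT, *Gli3*+/- and *Gli3*-/-) and 3 thymocyte populations (CD69- DP, CD69+ DP and SP4), so the comparison was made inside 9 pairs. Thymi came from mouse fetuses on a C57BL/6 background at embryonic day E18.5. They carried 2, 1 or 0 intact copies of *Gli3*, a transcription factor of the Hedgehog pathway, in all their tissues. Cells were stained for CD4, CD8 and CD69 and sorted by FACS into CD4+CD8+CD69- (CD69- DP), CD4+CD8+CD69+ (CD69+ DP) and CD4+CD8- (SP4) cells, and RNA was hybridised to Affymetrix GeneChip Mouse Gene 2.0ST arrays. No treatment or time separates the numbers in the labels, which do not say what a number stands for. The 3 arrays of a genotype and number have titles that share a source name (such as WT1), so the 9 pairs may come from 6 sources. Nothing in the labels says how many fetuses a source held or that the sources were separate animals, and p-values measure only the spread between these arrays.

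Immediate early genes are transcribed within minutes of a stimulus, from transcription factors already present in the cell, and need no new protein. Many encode AP-1 (Jun and Fos proteins that bind DNA in pairs), zinc finger factors of the Egr and Klf families, or short-lived inhibitors such as the phosphatase DUSP1 and the mRNA-destabilising protein ZFP36 that bring the response to an end. In thymocytes a part of the same set (*Egr1*, *Nr4a1*, *Cd69*) is induced by the T-cell receptor (TCR) during positive selection, whereas chaperone genes and *Ppp1r15a* answer to misfolded protein and to translational arrest.

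The arrays were close in overall signal, but the replicate 2 array had the lower median in 9 of 9 pairs (log2 −0.06 on average). Their median intensity lay between 62.3 and 65.8 on replicate 1 and between 59.3 and 63.1 on replicate 2 arrays, and the 2 arrays of a group correlated at 0.972 to 0.981 over all rows. *Cd69* separated the DP populations as sorted, with intensities of 92.0 to 220.3 on the 6 CD69- DP arrays and of 675 to 1416 on the 6 CD69+ DP arrays. Genes of sex chromosomes differed with number and genotype: *Xist*, which coats the inactive X, was 39.7 to 52.4 on WT replicate 1 and 2726 to 2946 on WT replicate 2 arrays, and *Eif2s3y*, a Y-linked translation factor gene, was lower on replicate 2 in 9 of 9 pairs (log2 −0.61, adjusted p = 0.00121). In WT, replicate number and *Xist* level went together on every array, so their parts in a WT difference cannot be told apart. With sex-linked genes left out of the fit, the count of changed genes was 2568 in place of 2569. Only 4 such genes were measured, so this count could hardly move and does not speak to other genes. How far the make-up of the sources bears on other genes was not tested. Of the markers of other cells, those called higher (7.56% of all genes) were 2 of 10 NK cell, 2 of 10 thymic epithelial, 1 of 15 macrophage and dendritic, and 0 of 12 neutrophil, 9 B cell, 3 erythroid, 8 mesenchymal and 8 endothelial markers, and none was called lower. The summed intensity of the NK markers ran from 942.7 to 1594 on replicate 1 and from 967 to 2408 on replicate 2 arrays, and that of the macrophage and dendritic markers from 836 to 1826 and from 879 to 2878.

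The 4 genes that mark the comparison were each higher on all 9 replicate 2 arrays than on any replicate 1 array. *Jun*, the DNA-binding core of AP-1, had a lowest, median and highest intensity of 61.6, 64.7 and 125 on replicate 1 arrays and of 302, 456 and 604 on replicate 2 arrays, the order in which 3 values are given for other genes. The highest replicate 1 value, in *Gli3*+/- SP4, lay well under the lowest replicate 2 value, in *Gli3*-/- CD69- DP. Its measured difference was the largest of 22180 genes (log2 +2.59, SE 0.14, 6.03-fold, adjusted p = 1.15e-07 by limma). No detection calls were used, and *Jun* on replicate 1 arrays lay near the median of all rows (62.7), so its level there, and with it the fold, was not shown to be free of background signal. *Fos*, the partner of *Jun* in AP-1, was 46.4, 57.6 and 105 on replicate 1 and 154, 311 and 456 on replicate 2 arrays (log2 +2.29, SE 0.18, adjusted p = 3.06e-06). *Ppp1r15a*, the phosphatase subunit that restarts translation after stress, was 119.6, 165 and 222 against 397, 551 and 752 (log2 +1.79, SE 0.10, adjusted p = 1.15e-07). *Dusp1*, which switches off MAP kinases, was 239.6, 272 and 338 against 434, 587 and 727 (log2 +1.07, SE 0.07, adjusted p = 2.56e-07). None of the 4 had an array of one number inside the range of the other. In sorted cells measured in bulk, a change in the share of cells that express a gene and a change in RNA per cell cannot be told apart.

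**Figure D1:**
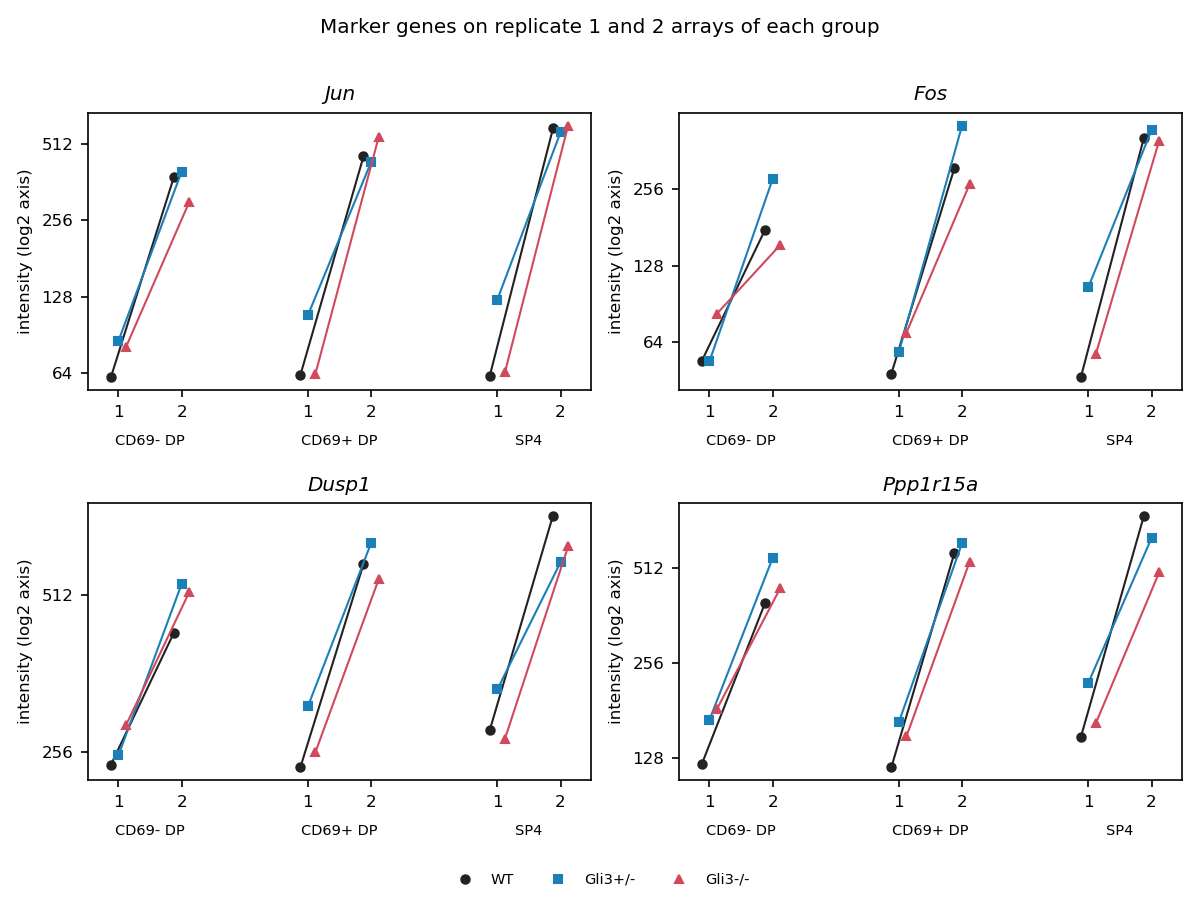
Normalised intensity (log2 axis) of *Jun*, *Fos*, *Dusp1* and *Ppp1r15a* on each of the 18 arrays, by population and replicate number, with symbols for genotype and a line joining the 2 arrays of a group. All 9 lines rise in each panel, for *Jun* from between 61.6 and 125 to between 302 and 604.

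Promoters of the 4 genes are shown for the short motifs in them. Each sequence runs 5′ to 3′ from 250 bases before to 50 bases after the RefSeq start site (GRCm38.p6). Capitals mark TGACGTCA (the cAMP response element), its core TGACG, TGACATCA (a site for Jun and ATF pairs) or GAANNTTC (a pair of heat shock units), each searched on both strands. TGACGTCA holds TGACG on either strand, so these matches overlap.
*Jun*, chr4:95052173-95052472, minus strand: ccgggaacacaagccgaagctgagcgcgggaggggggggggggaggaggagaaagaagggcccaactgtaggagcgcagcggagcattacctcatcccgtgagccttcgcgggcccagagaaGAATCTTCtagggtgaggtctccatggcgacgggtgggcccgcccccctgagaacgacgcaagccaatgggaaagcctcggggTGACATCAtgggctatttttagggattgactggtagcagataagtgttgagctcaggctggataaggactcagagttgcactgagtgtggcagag
*Fos*, chr12:85473640-85473939, plus strand: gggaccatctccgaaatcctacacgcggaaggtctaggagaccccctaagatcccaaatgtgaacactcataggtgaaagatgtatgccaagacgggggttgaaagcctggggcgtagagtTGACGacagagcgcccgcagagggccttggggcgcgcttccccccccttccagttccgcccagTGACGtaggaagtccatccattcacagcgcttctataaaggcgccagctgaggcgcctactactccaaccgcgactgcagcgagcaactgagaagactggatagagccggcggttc
*Dusp1*, chr17:26508423-26508722, minus strand: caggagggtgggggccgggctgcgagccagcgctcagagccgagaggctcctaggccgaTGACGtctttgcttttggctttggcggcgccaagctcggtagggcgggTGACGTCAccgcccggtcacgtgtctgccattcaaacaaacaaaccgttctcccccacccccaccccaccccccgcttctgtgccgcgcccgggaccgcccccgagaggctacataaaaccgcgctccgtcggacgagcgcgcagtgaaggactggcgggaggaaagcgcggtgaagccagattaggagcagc
*Ppp1r15a*, chr7:45526219-45526518, minus strand: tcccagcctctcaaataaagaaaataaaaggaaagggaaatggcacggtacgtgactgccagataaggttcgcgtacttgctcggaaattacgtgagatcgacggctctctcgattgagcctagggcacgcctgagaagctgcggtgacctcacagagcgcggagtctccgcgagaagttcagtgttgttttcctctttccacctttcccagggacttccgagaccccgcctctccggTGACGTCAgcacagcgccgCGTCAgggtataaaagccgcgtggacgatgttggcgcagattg
TGACGTCA began at −143 in *Dusp1* and at −12 in *Ppp1r15a*, a motif held by 1.79% of 32851 promoter windows of this length. *Jun* held TGACATCA at −45 (3.62% of windows) and GAANNTTC at −128 (7.86%). In *Fos* TGACG began at −129 and at −66 (20.8% of windows). TGACG also stood in the windows of *Fosb*, *Junb*, *Btg2*, *Dnajb9* and *Hspa5*, which rose, and of *Nr4a1* and *Atf3*, which did not pass between replicate numbers. It was absent from those of *Jund*, *Klf6*, *Zfp36* and *Hspa1a*, which rose. Per gene, TGACG was held by 38.9% of 1323 genes called higher and 26.8% of 16990 tested genes with a window. For TGACGTCA the shares were 5.37% and 2.65%, and neither difference was tested. A match describes the letters of the window and was not tested as a binding site.

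The AP-1 family rose through its immediate early members. Of 14 measured AP-1 and related bZIP genes 6 were called higher (adjusted p under 0.05 over all genes) and 0 lower, with a median log2 difference of +0.14, beside 7.56% of all genes called higher, 4.02% called lower and a median of −0.01. *Fosb* was 43.9, 56.3 and 76.0 on replicate 1 and 72.7, 165 and 384 on replicate 2 arrays (log2 +1.56, SE 0.18, adjusted p = 9.4e-05). The groups overlapped at their edges, although replicate 2 was higher in 9 of 9 pairs. *Jund* went from 249, 300.00 and 394 to 449, 557 and 775 without overlap (log2 +0.92, adjusted p = 6.73e-06), and *Junb* from 112, 154 and 184 to 166, 257 and 358 (log2 +0.77, adjusted p = 8.54e-06). *Maff*, a small Maf protein that pairs with other bZIP factors, had log2 +0.34 (adjusted p = 0.0088; 0.181 without the *Gli3*+/- arrays). *Atf3*, a stress-induced repressor, was 50.02, 59.8 and 68.0 against 54.3, 60.3 and 102 (log2 +0.15, adjusted p = 0.295). Its SP4 pairs had log2 +0.59, +0.56 and +0.25 and its CD69- DP pairs −0.07, −0.30 and +0.06 (WT, *Gli3*+/-, *Gli3*-/-). Differences of *Fosl2*, *Jdp2*, *Mafk*, *Mafg*, *Batf*, *Batf2* and *Batf3* lay between log2 −0.09 and +0.12 and did not pass.

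Among zinc finger and nuclear receptor factors, Klf genes were higher whereas the Egr and Nr4a genes did not pass. This list had 9 of 19 members called higher and 0 lower (median log2 +0.25). *Klf6*, a growth-regulating factor of many tissues, was 159, 251 and 308 on replicate 1 and 414, 512 and 599 on replicate 2 arrays (log2 +1.06, SE 0.07, adjusted p = 8.23e-07), with no overlap. *Klf4* (log2 +0.70, adjusted p = 0.000617) and *Klf2*, which keeps T-cells quiescent and drives thymic exit (log2 +0.63, adjusted p = 0.00135), rose likewise, as did *Klf10* (log2 +0.43). *Ier3*, *Ier5*, *Ier2*, *Csrnp1* and *Nfil3* rose by log2 +0.75, +0.54, +0.49, +0.44 and +0.43. *Klf10* and *Ier2* were not called without the *Gli3*+/- or without the *Gli3*-/- arrays, nor were *Csrnp1* and *Nfil3* without the *Gli3*+/- arrays. *Egr1*, induced by TCR signalling, was 72.5, 224 and 521 against 62.6, 247 and 375 (log2 −0.08, adjusted p = 0.702). Log2 differences of *Egr2* and *Egr3* were −0.19 and +0.01 (adjusted p = 0.186 and 0.969). Their ranges overlapped between the numbers. *Nr4a1*, another TCR target, had log2 −0.19 (adjusted p = 0.203), and *Nr4a3* −0.38 over all groups (adjusted p = 0.102).

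Other immediate early genes, among them kinases and regulators of G proteins, had 11 of 22 called higher and 0 lower (median log2 +0.28). *Pim1*, a kinase that needs no activation step, went from 84.3, 106 and 125 to 161, 181 and 282 (log2 +0.91, adjusted p = 8.64e-05) without overlap. *Sgk1*, a kinase induced by serum and glucocorticoid, went from 37.2, 39.9 and 53.5 to 57.9, 73.6 and 85.7 (log2 +0.76, adjusted p = 8.08e-05), also without overlap. *Rgs2*, which shortens signals through G proteins, was 387, 525 and 711 against 728, 861 and 1297 (log2 +0.73, adjusted p = 7.28e-05), and *Plk2*, a Polo-like kinase, 33.0, 42.1 and 47.4 against 52.7, 62.7 and 81.4 (log2 +0.59, adjusted p = 0.000582). These 4 had every replicate 2 array above every replicate 1 array. *Rgs1* (log2 +0.93, not called without the *Gli3*-/- arrays) and *Gem* (log2 +0.82) differed in size between populations and are described with them. *Sik1*, *Trib1*, *Per1*, *Hes1* and *Errfi1* rose by log2 +0.64, +0.59, +0.57, +0.50 and +0.35, with *Hes1* and *Errfi1* no longer called without the *Gli3*+/- arrays and *Hes1* also without the *Gli3*-/- arrays. *Myc* did not pass (log2 −0.24, adjusted p = 0.153).

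Feedback genes that end such a response were higher too, chiefly those that act on mRNA. Of 8 genes of mRNA decay and antiproliferative feedback 6 were called higher and 0 lower (median log2 +0.65). *Btg1*, which recruits the deadenylase complex and holds lymphocytes in quiescence, was 495, 639 and 898 on replicate 1 and 882, 1226 and 1574 on replicate 2 arrays (log2 +0.90, adjusted p = 1.06e-05). *Tob1*, of the same family, was 88.9, 116 and 135 against 179.7, 207 and 273 (log2 +0.90, adjusted p = 1.62e-05), and *Zfp36*, which marks AU-rich mRNAs for decay, 868, 1044 and 1328 against 1477, 1782 and 2629.7 (log2 +0.88, adjusted p = 8.81e-05). *Tob1* and *Zfp36* did not overlap between numbers. *Tob2*, *Btg2* and *Zfp36l2* rose by log2 +0.72, +0.59 and +0.38, the last of these not called without the *Gli3*+/- arrays. Of 15 dual-specificity phosphatases and MAP kinase inhibitors 3 were called higher and 0 lower (median log2 +0.10): *Dusp1*, *Dusp10*, a phosphatase of JNK and p38 (log2 +0.33, adjusted p = 0.00935), and *Spry1* (log2 +0.28, adjusted p = 0.0169). *Dusp10* and *Spry1* lost their calls without the *Gli3*+/- or without the *Gli3*-/- arrays. Of 17 NF-kappaB inhibitors and targets 6 were called higher and 2 lower (median log2 +0.05). *Tnfaip3*, the A20 inhibitor of NF-kappaB, went from 221, 299 and 367 to 347, 520.05 and 719.6 (log2 +0.79, adjusted p = 1.64e-05), and *Tnf* and the inhibitor *Nfkbie* rose by log2 +0.41 and +0.38, each higher in 8 of 9 pairs and neither called without the *Gli3*+/- arrays. *Rel*, an NF-kappaB subunit induced in lymphocytes, was lower on replicate 2 arrays in 8 of 9 pairs, 169.6, 667 and 861 against 147, 389.6 and 505 (log2 −0.60, adjusted p = 0.00169), and *Relb* had log2 −0.23 (adjusted p = 0.027), a call lost when any of several arrays was left out. Without the *Gli3*+/- arrays 1 NF-kappaB and 1 phosphatase gene were called higher, and without the *Gli3*-/- arrays 4 and 1.

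**Figure D2:**
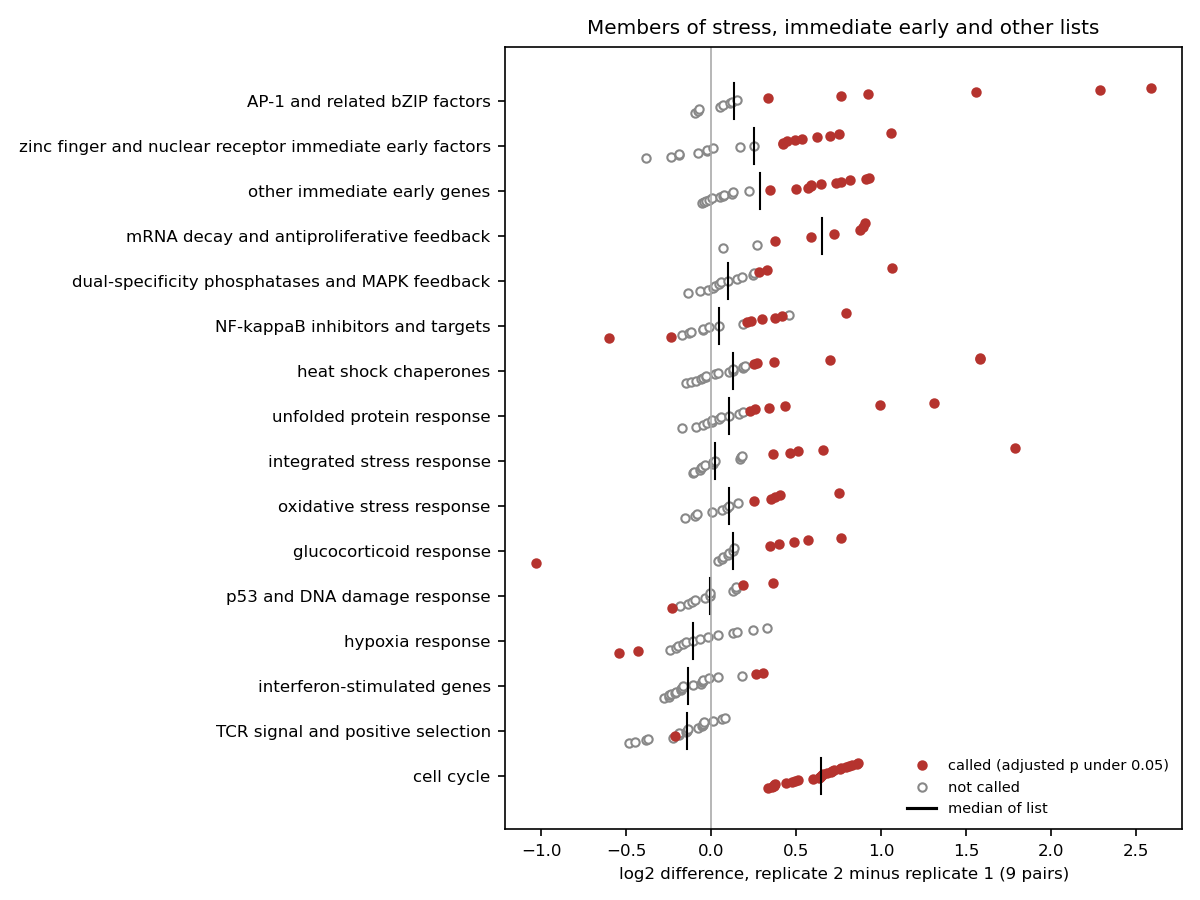
Log2 difference of replicate 2 minus replicate 1 for each measured member of 16 lists, with filled points for genes called at an adjusted p under 0.05 and a bar at the median of the list. Called members of the immediate early lists lie to the right of 0, and all 27 cell cycle genes are called.

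Of 21 heat shock chaperones 6 were called higher and 0 lower (median log2 +0.13), and the other 15, among them *Hspa8* and *Hsph1*, did not pass. *Hspa1a*, an inducible HSP70, was 69.1, 111 and 746 on replicate 1 and 208, 316 and 1240.3 on replicate 2 arrays (log2 +1.58, SE 0.23, adjusted p = 0.00056), and its near-identical copy *Hspa1b* 69.3, 234 and 1109 against 378, 481 and 1353 (log2 +1.59, SE 0.23, adjusted p = 0.000568). Both were higher in 9 of 9 pairs and overlapped between numbers, with *Gli3*+/- SP4 replicate 1 at 746 and 1109. Probes may not tell these copies apart, so neither value is certain on its own. *Dnajb1*, the HSP40 partner of HSP70, went from 140.2, 177 and 203 to 250.1, 289 and 318 without overlap (log2 +0.70, adjusted p = 3.21e-05). *Hsp90aa1*, *Dnajb4* and *Ahsa2* rose by log2 +0.37, +0.27 and +0.25, each of them not called without the *Gli3*+/- arrays, *Ahsa2* also not without the WT arrays and *Dnajb4* not when any of several arrays was left out. *Hspa8*, the constitutive HSP70, was 6457, 7754 and 8052 against 6903, 7406 and 7653 (log2 −0.03, adjusted p = 0.764), and *Hsph1* had log2 +0.13 (adjusted p = 0.441). The *Hspa1a* promoter is shown for its heat shock units, GAANNTTC in capitals at −104, the same offset as in *Hspa1b*.
*Hspa1a*, chr17:34972107-34972406, minus strand: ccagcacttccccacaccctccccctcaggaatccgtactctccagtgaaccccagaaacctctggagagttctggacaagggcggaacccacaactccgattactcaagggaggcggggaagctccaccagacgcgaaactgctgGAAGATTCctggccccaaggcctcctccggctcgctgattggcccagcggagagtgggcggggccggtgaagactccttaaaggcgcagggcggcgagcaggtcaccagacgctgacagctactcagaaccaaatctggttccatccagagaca

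Of 17 genes of the unfolded protein response, which relieves the endoplasmic reticulum of misfolded protein, 6 were called higher and 0 lower (median log2 +0.10), and 11 did not pass. *Dnajb9*, an HSP40 of the endoplasmic reticulum, was 171, 212 and 264 on replicate 1 and 299, 548 and 716 on replicate 2 arrays (log2 +1.31, SE 0.08, adjusted p = 2.73e-07), with no overlap. *Hspa5*, the BiP chaperone, was 198, 413 and 631 against 509, 764 and 1049 (log2 +1.0, SE 0.10, adjusted p = 2.78e-05) and overlapped. *Herpud1*, *Sdf2l1*, *Xbp1* and *Manf* rose by log2 +0.44, +0.34, +0.26 and +0.23. Only *Dnajb9* and *Hspa5* of the 6 stayed called without the *Gli3*+/- or without the *Gli3*-/- arrays, and *Xbp1* was called in 11 of 31 alternative settings. The *Hspa5* promoter is printed for its ER stress element at −65 (0.119% of windows). TGANTCA, the AP-1 site, stood at −182 (7.81% of windows) and TGACG at −157, all in capitals.
*Hspa5*, chr2:34771840-34772139, plus strand: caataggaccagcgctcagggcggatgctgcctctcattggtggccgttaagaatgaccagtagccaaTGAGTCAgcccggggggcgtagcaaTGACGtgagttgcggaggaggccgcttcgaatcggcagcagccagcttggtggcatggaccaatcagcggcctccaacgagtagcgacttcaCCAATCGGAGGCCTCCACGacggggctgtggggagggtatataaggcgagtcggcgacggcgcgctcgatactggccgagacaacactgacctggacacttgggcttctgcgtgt

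The integrated stress response, in which phosphorylated eIF2 slows translation and lets ATF4 be made, had 5 of 17 members called higher and 0 lower (median log2 +0.02). Beside *Ppp1r15a* these were *Ddit4*, an inhibitor of mTOR (log2 +0.66, adjusted p = 0.00284), *Atf4* itself (log2 +0.51, adjusted p = 0.00224), *Cebpb* (log2 +0.46, adjusted p = 0.00313) and *Ppp1r15b*, the constitutive relative of *Ppp1r15a* (log2 +0.37, adjusted p = 0.00165). *Ddit4*, *Atf4* and *Ppp1r15b* were not called without the *Gli3*+/- arrays. Members that did not pass included *Ddit3*, the CHOP factor (log2 +0.18, adjusted p = 0.0557), *Trib3* (+0.02, adjusted p = 0.929) and *Asns*, asparagine synthetase (+0.01, adjusted p = 0.953).

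The oxidative stress, glucocorticoid and BCL2 lists each had 5 of 13 members called higher (38.5%, beside 7.56% of all genes), and the p53, hypoxia and interferon lists fewer. Of 13 oxidative stress genes 5 were called higher and 0 lower (median log2 +0.11), led by *Slc7a11*, the cystine transporter (log2 +0.75, adjusted p = 0.0232; called in 22 of 31 alternative settings), and *Sqstm1*, the autophagy receptor p62, which went from 234, 265 and 299.6 to 307, 355 and 401 without overlap (log2 +0.41, adjusted p = 0.000592). *Gsr* and *Hmox1* rose by log2 +0.35 and +0.37. Without the *Gli3*+/- arrays 1 of the 13 was called. Of 13 glucocorticoid response genes 5 were higher and 1 lower (median log2 +0.13). *Tsc22d3*, the GILZ protein induced by glucocorticoid, was 71.4, 75.6 and 97.4 against 100.5, 109 and 122 (log2 +0.49, adjusted p = 0.000419) without overlap, and *Il7r* was the lower member. Of 13 BCL2 family genes 5 were higher and 0 lower (median log2 +0.08), among them the death effector *Bak1* (log2 +0.61, adjusted p = 0.00118), *Pmaip1* (log2 +0.36, adjusted p = 0.000461) and the survival gene *Bcl2l1* (log2 +0.35, adjusted p = 0.0341; called in 14 of 31 settings). Without *Gli3*+/- CD69- DP replicate 1 the count was 2 of 13. Of 13 p53 targets 2 were higher and 1 lower (median log2 −0.01), with *Mdm2* at log2 +0.13 (adjusted p = 0.189) and *Cdkn1a* at +0.14 (adjusted p = 0.243). Hypoxia genes had 0 of 15 higher and 2 lower (median log2 −0.11), *P4ha1*, a collagen hydroxylase (log2 −0.54, adjusted p = 0.00136), and *Bnip3* (log2 −0.43, adjusted p = 0.0263). *Bnip3* lost its call when any of several arrays was left out. The median of the hypoxia list was log2 +0.04 in WT, −0.08 in *Gli3*+/- and −0.34 in *Gli3*-/- cells. *P4ha1* had −0.90, −0.92 and −0.95 in the *Gli3*-/- pairs, its largest falls, but neither gene passed the F test between genotypes. Interferon-stimulated genes had 2 of 20 higher and 0 lower (median log2 −0.14), and 0 without *Gli3*+/- CD69- DP replicate 1. General transcription and splicing genes had 2 of 25 higher and 2 lower. Of these, *Hexim1*, which holds the elongation kinase P-TEFb inactive, went from 241, 259 and 341 to 347, 411 and 539 without overlap (log2 +0.62, adjusted p = 1.97e-05).

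Genes of dividing cells were higher on replicate 2 arrays as a block. All 27 measured cell cycle genes were called higher, with log2 differences from +0.34 (*Mcm7*, of the replicative helicase) to +0.86 (*Birc5*, of the chromosomal passenger complex) and a median of +0.65. *Plk1*, the Polo kinase of mitosis, was 158, 415 and 569 on replicate 1 and 396, 632 and 773 on replicate 2 arrays (log2 +0.86, adjusted p = 0.00068), and *Aurka*, a spindle pole kinase, 128, 313 and 509.9 against 294, 499 and 679 (log2 +0.83, adjusted p = 0.00045). Ranges of the numbers overlapped for every one of the 27. The count was 25 without the WT arrays, 20 without the *Gli3*+/- arrays and 8 without the *Gli3*-/- arrays. Of 29 histone genes 19 were called higher and 0 lower (median log2 +0.57). *H1f1*, a linker histone, had log2 +1.43 (adjusted p = 0.000577), *H2ac21* +1.26 (adjusted p = 1.06e-05) and *H2bc18* +1.20 (adjusted p = 1.74e-05). *H4c8* had log2 +2.39 (adjusted p = 3.06e-06) and did not overlap, but was named after its values were seen. Genes of the DP stage had 2 of 12 higher and 1 lower: *Ptcra*, the pre-TCR alpha chain (log2 +0.74, adjusted p = 0.00147), *Rag2*, of the recombinase (log2 +0.57, adjusted p = 0.0136; not called without the WT or without the *Gli3*+/- arrays), and *Satb1*, a chromatin organiser, which fell from 2954, 3169 and 3428 to 2120.00, 2522 and 2948 without overlap (log2 −0.34, adjusted p = 0.00154).

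Rows named for microRNA genes held some of the largest differences, chosen after their values were seen. Whether such a row reads a mature microRNA or its longer precursor is not stated. Of 483 microRNA genes 20 were called higher (4.14%, beside 7.56% of all genes) and 32 lower (6.63%, beside 4.02%). *Mir181a-1*, whose product tunes TCR sensitivity in thymocytes, was 10.8, 12.9 and 19.3 on replicate 1 and 42.4, 81.8 and 129 on replicate 2 arrays (log2 +2.50, SE 0.15, adjusted p = 1.75e-07). *Mir142*, a microRNA of blood cells, went from 71.8, 75.6 and 137 to 147, 283 and 487 (log2 +1.72, adjusted p = 5.27e-06), and *Mirlet7g* from 20.7, 24.4 and 30.4 to 46.0, 97.3 and 124 (log2 +1.81, adjusted p = 4.04e-06). The 3 neighbours of one primary transcript on chromosome 14 that rose were *Mir17* (log2 +1.37), *Mir18* (log2 +1.90) and *Mir20a* (log2 +1.13). *Mir19a*, between *Mir18* and *Mir20a*, was 8.27, 10.2 and 11.0 against 9.48, 10.5 and 15.3 (log2 +0.17, adjusted p = 0.231). *Mir181b-1*, next to *Mir181a-1* on chromosome 1, was 117, 266 and 395 against 137, 176 and 268 (log2 −0.32, adjusted p = 0.108). Ranges of the 2 numbers overlapped for *Mir19a* and *Mir181b-1*. *Mir128-2* (log2 +1.07) and *Mir15b* (log2 +0.92) completed the 8 microRNA genes whose replicate 2 arrays all lay above their replicate 1 arrays. *Mir669k* fell from 49.5, 63.5 and 100.3 to 21.6, 29.8 and 38.6 (log2 −1.14, adjusted p = 1.75e-07).
Mature sequences (RefSeq, GRCm38.p6) are printed for the rows that rose most, 5′ to 3′ with the seed (bases 2 to 8) in capitals, because the seed is the part that pairs with target mRNAs, and to show which rows share one.
miR-181a-5p, chr1:137966468-137966490, plus strand: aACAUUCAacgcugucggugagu
let-7g-5p, chr9:106178846-106178867, plus strand: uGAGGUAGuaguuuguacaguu
miR-142a-5p, chr11:87756867-87756887, plus strand: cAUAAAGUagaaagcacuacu
miR-142a-3p, chr11:87756903-87756925, plus strand: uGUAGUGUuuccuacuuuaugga
miR-17-5p, chr14:115043684-115043706, plus strand: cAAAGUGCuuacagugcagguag
miR-20a-5p, chr14:115044183-115044205, plus strand: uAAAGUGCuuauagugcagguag
miR-18a-5p, chr14:115043867-115043889, plus strand: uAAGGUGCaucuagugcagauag
miR-128-3p, chr9:112118644-112118664, minus strand: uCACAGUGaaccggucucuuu
Seeds of miR-17-5p and miR-20a-5p were identical, and that of miR-18a-5p differed from them by an A-to-G change.

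**Figure D3:**
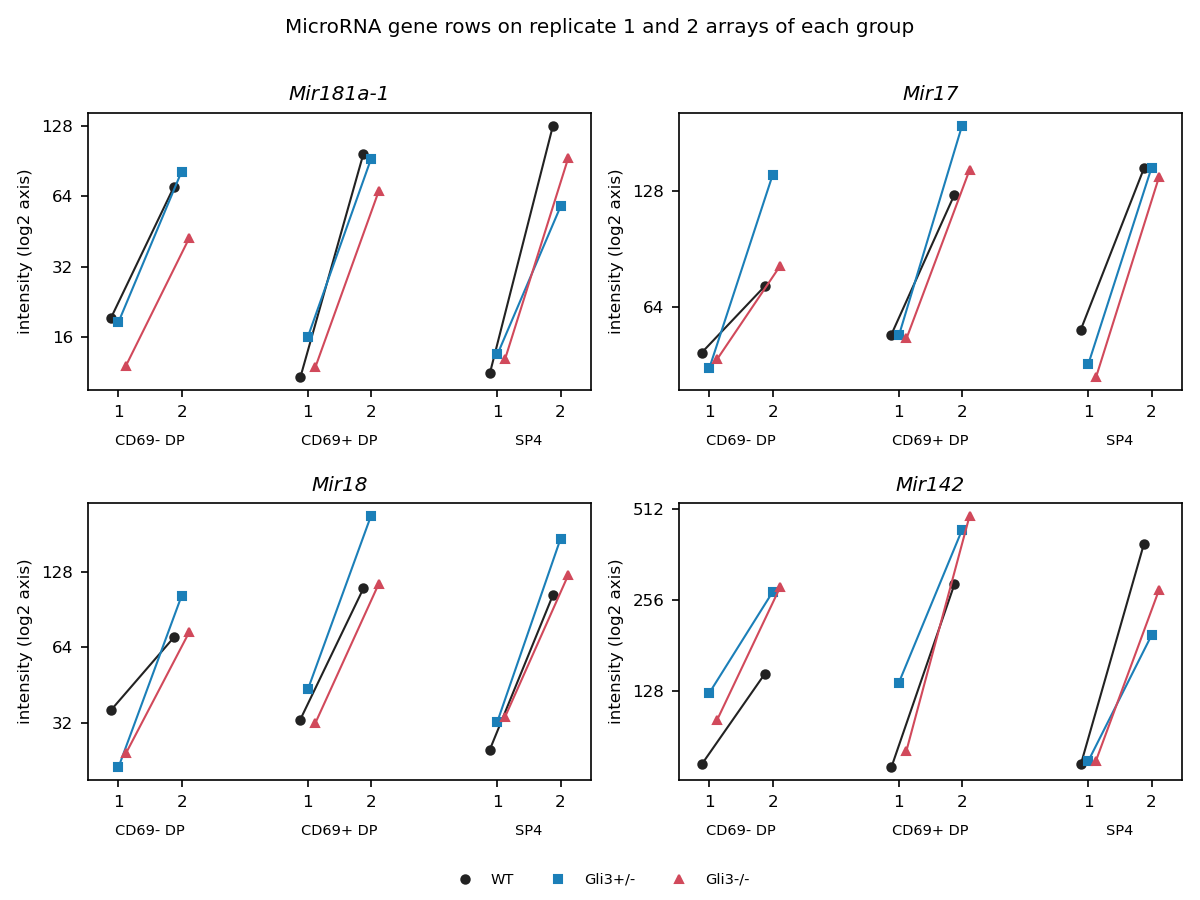
Normalised intensity (log2 axis) of the rows of *Mir181a-1*, *Mir17*, *Mir18* and *Mir142* on each of the 18 arrays, by population and replicate number, with symbols for genotype and lines joining the 2 arrays of a group. Every replicate 2 array lies above every replicate 1 array, for *Mir181a-1* between 42.4 and 129 against 10.8 to 19.3.

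Across all genes 2569 of 22180 differed (11.6%), 1677 higher and 892 lower on replicate 2 arrays. After quantile normalisation it was 1293 higher and 1231 lower. At least 2-fold differences among called genes numbered 35 higher (0.158%) and 9 lower (0.0406%), and 934 (4.21%) were higher and 488 (2.2%) lower in 9 of 9 pairs, called or not. Arrays of the 2 numbers did not overlap for 98 higher (0.442%) and 38 lower genes (0.171%). Outside the lists, brighter genes with the largest rises included *Gdpd3*, a lysophospholipase, from 45.9, 61.4 and 68.4 to 106, 164 and 201 (log2 +1.45, adjusted p = 1.5e-07), and *Pisd-ps3*, a pseudogene (log2 +1.24, adjusted p = 0.000275). Both were higher in 9 of 9 pairs. *Vaultrc5*, a small RNA of the vault particle and named after its values were seen, had log2 +1.83 (adjusted p = 3.03e-05). Genes lower on replicate 2 arrays included surface molecules of mature T-cells. *Il7r*, the interleukin 7 receptor chain that is lost at the DP stage and regained with selection, was lower in 9 of 9 pairs, 24.3, 404 and 2194 against 19.1, 138 and 1237 (log2 −1.03, SE 0.18, adjusted p = 0.00237). *Cd40lg*, the CD40 ligand of helper T-cells, was 27.1, 103 and 775 against 24.9, 38.0 and 234 (log2 −0.99, adjusted p = 0.00265). *Inpp4b*, a lipid phosphatase, and *Ifi209*, an interferon-inducible DNA sensor of the mouse, fell by 0.89 each on the log2 scale (adjusted p = 0.000213 and 0.000975), again in 9 of 9 pairs. *Chil5*, of the chitinase-like family, went from 71.5, 106 and 145 to 30.1, 41.5 and 60.2 without overlap (log2 −1.23, adjusted p = 8.08e-05). Likewise *Trim12a* and *Trim34a*, neighbouring antiviral TRIM genes with close relatives in the genome, had log2 −0.91 and −0.94 (adjusted p = 4.02e-05 and 6.9e-05), without overlap.

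Within populations the replicate difference took in 483 genes in CD69- DP (2.18%; 347 higher and 136 lower), 1019 in CD69+ DP (4.59%; 665 higher, 354 lower) and 562 (2.53%; 369 higher, 193 lower) in SP4. These counts rest on 3 pairs each and moved with single arrays, down to 48 without *Gli3*-/- CD69- DP replicate 1, to 377 without *Gli3*+/- CD69+ DP replicate 1 and to 235 without *Gli3*+/- SP4 replicate 1. They do not show that one population differed more than another. The difference itself varied between populations in 110 genes (0.496%, limma F test), and in 25 without WT CD69- DP replicate 1. Of these 110 it was largest in CD69+ DP for 67, in SP4 for 32 and in CD69- DP for 11.

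The marker genes rose in each population, and a difference in size between populations did not pass. *Jun* went from 61.6, 85.8 and 81.2 (WT, *Gli3*+/-, *Gli3*-/-) to 380.2, 397 and 302 in CD69- DP cells. The CD69+ DP values went from 62.9, 108 and 63.8 to 456, 433 and 543, and in SP4 cells from 62.6, 125 and 64.7 to 588, 569 and 604. Log2 differences were +2.24, +2.65 and +2.88 (SE 0.22 each), and the excess in SP4 over CD69- DP of +0.64 had a 95% interval of −0.03 to 1.30 (F test adjusted p = 0.642). *Fos* rose by log2 +1.67, +2.54 and +2.66, with +0.87 (95% interval 0.10 to 1.63) more in CD69+ DP and +0.99 (0.23 to 1.76) more in SP4 than in CD69- DP cells. Those intervals, not adjusted over genes, exclude 0, and the F test over all genes did not pass (adjusted p = 0.41). *Ppp1r15a* had log2 +1.56, +2.00 and +1.81 (adjusted p = 0.648), and CD69+ DP exceeded CD69- DP by +0.44 (−0.02 to 0.90). *Dusp1* had +0.93, +1.14 and +1.13 (adjusted p = 0.782), with differences between populations of at most +0.22 (−0.13 to 0.56). These intervals leave room for differences of a size that 3 pairs could not resolve. Among the lists, 3 of 22 other immediate early genes, 1 of 19 zinc finger and nuclear receptor factors and 1 of 15 phosphatases and MAP kinase inhibitors varied between populations, beside 0.496% of all genes (6, 9 and 3 at an unadjusted p under 0.05). By the same limma F test 0 of 14 AP-1, 0 of 8 mRNA decay, 0 of 21 heat shock, 0 of 17 unfolded protein and 0 of 17 integrated stress response genes varied. In lists this short, 0 does not stand apart from 0.496%. At an unadjusted p under 0.05 these lists had 5, 2, 3, 2 and 0 members, beside 2330 of 22180 genes. Some of their members had 95% intervals, not adjusted over genes, that exclude 0. In SP4 minus CD69- DP cells *Fosb* had log2 +1.03 (0.26 to 1.81), *Atf3* +0.57 (0.25 to 0.89) and *Junb* +0.39 (0.10 to 0.68). In CD69+ DP minus CD69- DP cells *Btg2* had +0.68 (0.25 to 1.10) and *Tob2* +0.67 (0.23 to 1.11). *Hspa5* had log2 +1.29, +0.90 and +0.79 (adjusted p = 0.538), and *Klf6* +0.82, +1.05 and +1.30 (adjusted p = 0.318). *Klf2* went the other way from *Klf6*, with a difference in SP4 minus CD69- DP cells of log2 −0.61 (95% interval −1.05 to −0.17, not adjusted over genes). Its SP4 pairs had +0.11, +0.02 and +0.82 (WT, *Gli3*+/-, *Gli3*-/-), and its F test over all genes did not pass.

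**Figure D4:**
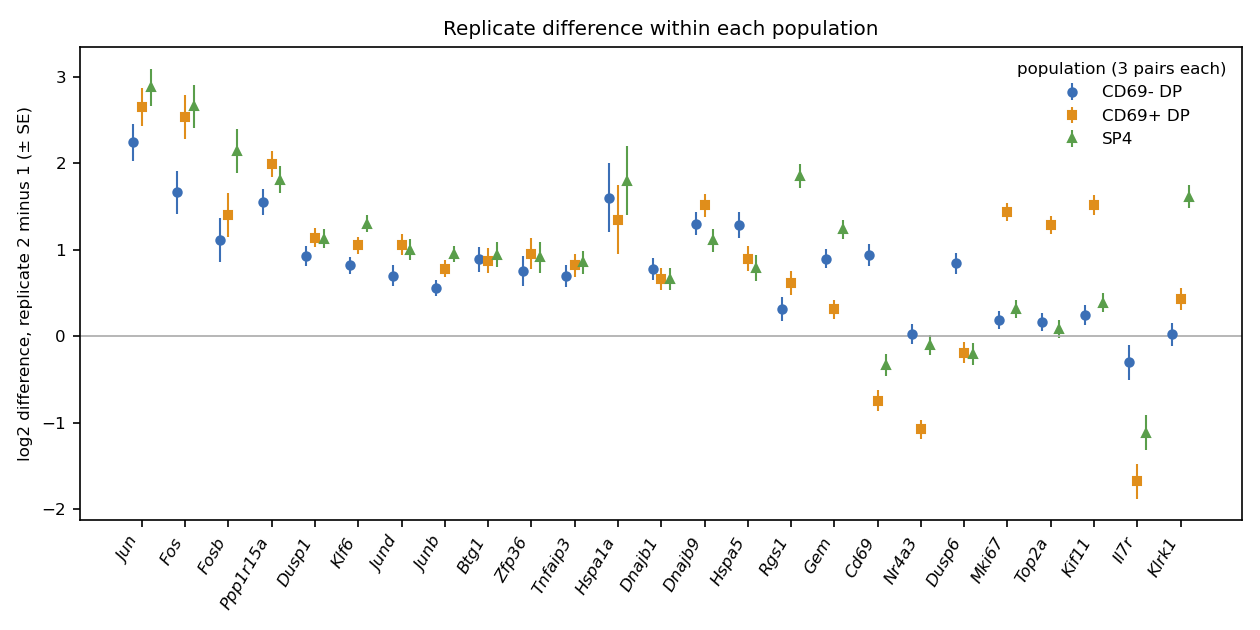
Log2 difference of replicate 2 minus replicate 1 in each of the 3 populations, with its SE, for 25 genes (3 pairs per point). The AP-1, feedback and chaperone genes on the left lie above 0 in all 3 populations, whereas *Cd69*, *Nr4a3* and *Dusp6* have points on both sides of 0.

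Genes of TCR signalling and positive selection differed between the populations, and *Cd69* moved in opposite directions in the DP cells. *Cd69*, the surface marker on which DP cells were sorted, was 119, 111 and 92.0 on replicate 1 and 192, 220.3 and 202 on replicate 2 arrays of CD69- DP cells (WT, *Gli3*+/-, *Gli3*-/-; log2 +0.94, adjusted p = 0.00261). In CD69+ DP cells it was 1204, 1416 and 1329.8 against 783, 675 and 917 (log2 −0.74, adjusted p = 0.00303). Numbers 1 and 2 did not overlap in either population, and the replicate difference in CD69+ DP minus that in CD69- DP cells was log2 −1.68 (95% interval −2.06 to −1.30, F test adjusted p = 0.00344). *Nr4a3*, a TCR target, had log2 +0.03 in CD69- DP, −1.08 in CD69+ DP and −0.10 in SP4 cells (F adjusted p = 0.0124). *Dusp6*, an ERK phosphatase, had +0.84, −0.19 and −0.20 (adjusted p = 0.0229). *Itm2a*, induced on positive selection, had +0.43, −1.13 and −0.74 (adjusted p = 0.0101), and *Bcl2*, the survival gene that selected cells regain, +0.27, −0.62 and −0.77 (adjusted p = 0.0233). In all, 4 of 19 genes of TCR signalling and positive selection varied between populations, and in all 4 the difference was lower in CD69+ DP than in CD69- DP cells. Over the 3 populations together 0 of the 19 were called higher and 1 lower, the costimulatory receptor gene *Cd28* (log2 −0.21, adjusted p = 0.0394; called in 14 of 31 settings). That count of lower calls was 4 on 6 values, 0 to 3 with 1 array left out and 0 after median centring. Within populations 6 of the 19 were called lower in CD69+ DP (1.6% of all genes) and 2 in SP4 cells (0.87%), and 1 was called higher in CD69- DP cells. Of 25 alternative fits *Nr4a3* was called in 21, *Dusp6* and *Bcl2* in 16 each, and *Cd69* and *Itm2a* in all 25. *Tma16*, a ribosome assembly factor gene, had log2 +0.61, −0.93 and −0.35 (adjusted p = 0.00344).

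Cell cycle genes differed most in CD69+ DP cells. *Mki67*, the proliferation marker, was 581, 757 and 812 (WT, *Gli3*+/-, *Gli3*-/-) on their replicate 1 arrays and 1656, 2269 and 1882 on their replicate 2 arrays (log2 +1.44, adjusted p = 8.94e-06). Its means of replicate 1 and 2 were 2444 ± 238 and 2783 ± 132 in CD69- DP cells and 1855 ± 167 and 2301 ± 123 in SP4 cells (SD, n = 3), log2 differences of +0.19 and +0.31 that did not pass within those populations. Replicate 1 CD69+ DP arrays were thus the low ones, and those of replicate 2 overlapped the SP4 arrays. Over the 27 genes the median log2 was +0.36 in CD69- DP, +1.23 in CD69+ DP and +0.34 in SP4 cells, with 0, 24 and 4 called higher (1.56%, 3% and 1.66% of all genes). The difference varied between populations for 11 of 27 (0.496% of all genes). *Top2a*, *Kif11* and *Ndc80*, of DNA untangling, the spindle and the kinetochore, had log2 +1.29, +1.52 and +1.86 in CD69+ DP against +0.16, +0.25 and +0.45 in CD69- DP cells (F adjusted p = 0.00405, 0.00627 and 0.00344). *Prr11*, a mitotic gene, followed (log2 +0.28, +1.97 and +0.77, adjusted p = 0.00344). *Birc5* and *Ccnb2* also passed (adjusted p = 0.0499 and 0.0415), but in only 8 and 12 of 25 alternative fits.

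A further group had its largest differences in SP4 cells. *Rgs1*, which blunts chemokine signals in lymphocytes, was 32.2, 47.4 and 37.5 on replicate 1 and 114, 159 and 148 on replicate 2 arrays of SP4 cells. Its log2 differences were +0.31, +0.62 and +1.85 from CD69- DP through CD69+ DP to SP4 cells, the order used for 3 such values (F adjusted p = 0.00837). *Klrk1*, the NKG2D receptor of cytotoxic cells, was 25.6, 22.0 and 24.8 against 64.0, 68.9 and 91.2 in SP4 cells (log2 +1.62, F adjusted p = 0.00549). *Ccl5*, a chemokine of effector T-cells, had log2 −0.06, +0.76 and +1.59 (F adjusted p = 0.00344), and *Gzmb*, granzyme B, −0.07, +0.31 and +1.37 (adjusted p = 0.0128). NK cell markers, which include *Klrk1* and *Gzmb*, had a median log2 of +0.49 in SP4 cells with 5 of 10 called higher there, and their part in the SP4 differences was not tested. *Mpeg1*, a perforin-like gene of macrophages, had +0.04, −0.47 and +0.76 (adjusted p = 0.00627), and *H2-Ab1*, a class II chain, rose over all groups (log2 +0.78, adjusted p = 0.00178). *Gem*, a small GTPase induced by mitogens, rose more in SP4 than in CD69+ DP cells (log2 +0.90, +0.31 and +1.24, F adjusted p = 0.0406), a call kept in 10 of 25 alternative fits. *Pisd-ps3* rose more in CD69+ DP than in CD69- DP cells (log2 +0.51, +1.83 and +1.38, F adjusted p = 0.0243). *Il7r* had log2 −0.30, −1.68 and −1.12, and its difference between populations did not pass (F adjusted p = 0.111).

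**Figure D5:**
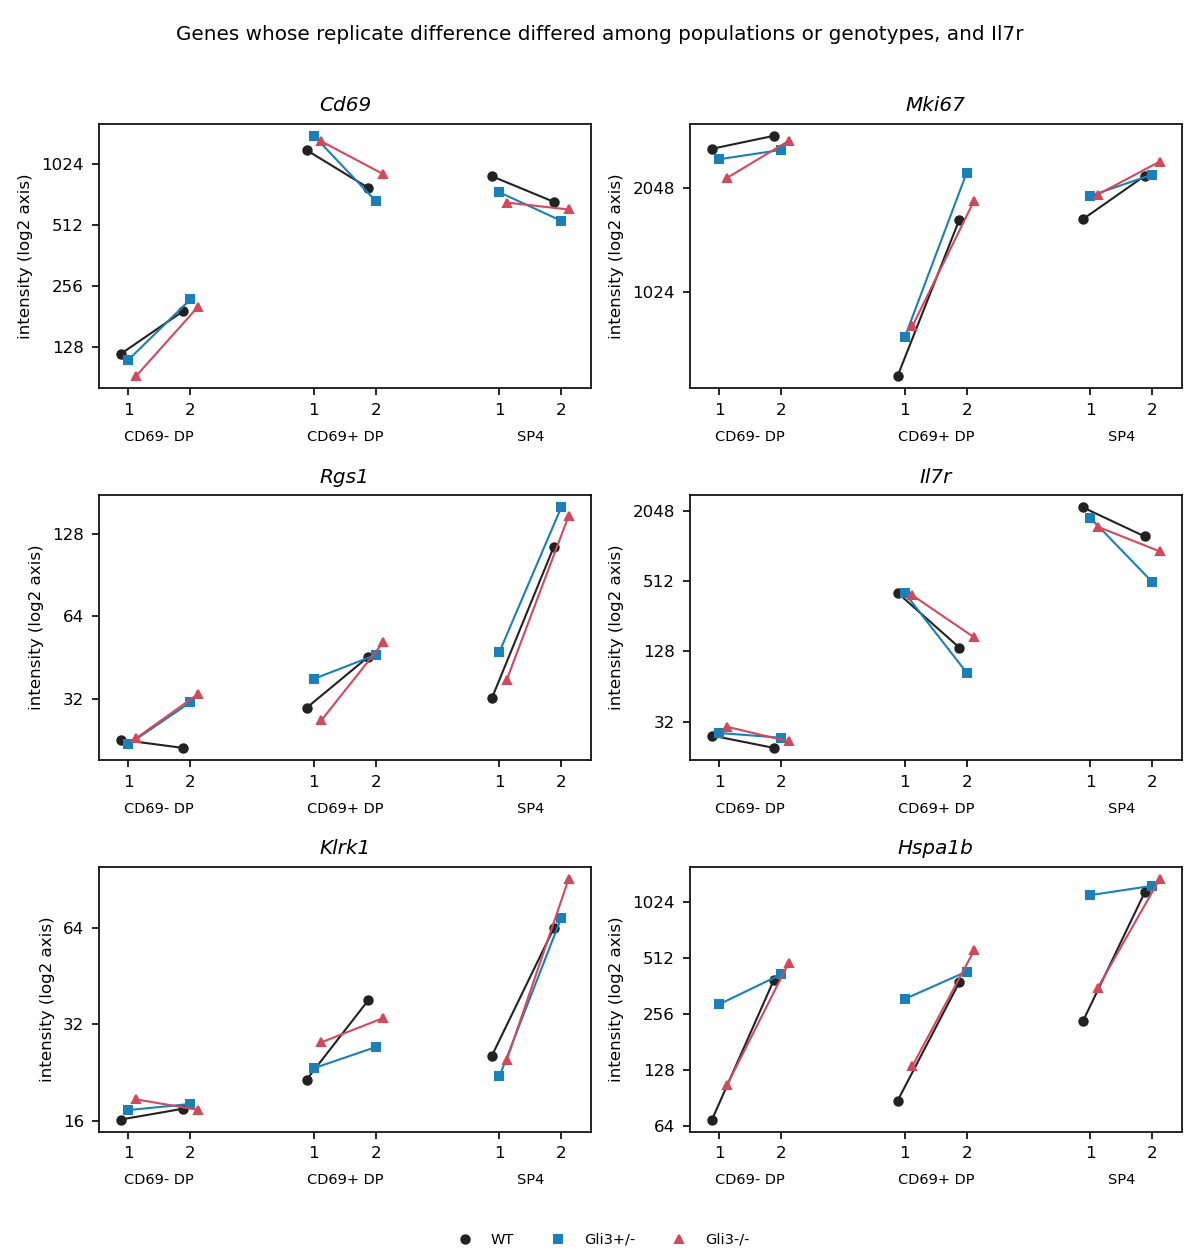
Normalised intensity (log2 axis) of *Cd69*, *Mki67*, *Rgs1*, *Il7r*, *Klrk1* and *Hspa1b* on each of the 18 arrays, by population and replicate number, with symbols for genotype and lines joining the 2 arrays of a group. *Cd69* lines rise in CD69- DP and fall in CD69+ DP cells, *Mki67* is low only on the 3 CD69+ DP replicate 1 arrays (581 to 812), and the *Gli3*+/- lines of *Hspa1b* are the flattest.

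The replicate difference was tested in the same way between genotypes. It was called for 91 genes within WT (0.41%), 731 within *Gli3*+/- (3.3%) and 272 within *Gli3*-/- (1.23%), and varied between genotypes for 2 genes (0.00902%; 906 at an unadjusted p under 0.05). *Hspa1b* had log2 +2.30 in WT, +0.40 in *Gli3*+/- and +2.06 in *Gli3*-/- cells (F adjusted p = 0.000341), and *Hspa1a* +1.93, +0.53 and +2.30 (adjusted p = 0.228). Within each population the *Gli3*+/- array held the highest *Hspa1b* value of replicate 1, 288, 308 and 1109 in that order of populations. WT replicate 1 arrays had 69.3, 87.3 and 234, and *Gli3*-/- replicate 1 arrays 106, 134 and 353. *Xist* was the other gene, with log2 +5.93 in WT, +0.03 in *Gli3*+/- and −0.19 in *Gli3*-/- cells. *Jun* had +2.91, +2.13 and +2.74 (adjusted p = 0.993) and *Fos* +2.52, +2.47 and +1.88 (adjusted p = 0.993).

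Replicate number also bore on comparisons of the sorted populations. Between CD69+ DP and CD69- DP cells 1728 genes were called (7.79%; 679 higher, 1049 lower in CD69+ DP), and 2673 with the replicate number as a block (12.1%; 1039 higher, 1634 lower). From CD69+ DP to SP4 cells the counts were 1365 (6.15%; 979 higher, 386 lower) and 2475 with the block (11.2%; 1699 higher, 776 lower). *Mki67* was lower in CD69+ DP than in CD69- DP cells by log2 −1.16, at an adjusted p of 0.0256 without and 0.000725 with the block. *Junb* had log2 +0.52 in the same contrast, at adjusted p = 0.307 and 0.000436. *Jun* and *Fos* differed by log2 +0.21 and +0.34 between these populations and did not pass in either fit (adjusted p = 0.529 and 0.411 with the block). *Egr1* and *Nr4a1*, which did not pass between replicate numbers, were higher in CD69+ DP than in CD69- DP cells by log2 +2.14 and +2.38 (adjusted p = 7.91e-07 and 3.25e-07).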

How the data were processed

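RNA of 18 sorted thymocyte samples was hybridised to Affymetrix GeneChip Mouse Gene 2.0ST arrays. The authors deposited a table of normalised intensity, made with RMA in the oligo package and given on a linear scale. Versions, annotation release and genome build were not given in the sources used here, and neither detection calls nor scan dates were used. RMA forces arrays toward one distribution, so a change of overall RNA content would be removed, and the number of arrays limits the precision. Log2 of the intensity was taken. Of 41345 rows, 23521 had 1 gene symbol, 1820 had several and 16004 none, and the row with the highest mean was kept for 22180 genes. Differences were fitted in R 4.3.3 (limma 3.58.1), taking the 9 groups as blocks (8 residual degrees of freedom), within populations or genotypes (6 residual degrees of freedom), and with an F test across them, without trend. Genes with p under 0.05 after Benjamini-Hochberg adjustment over the 22180 were called. The script was tested on simulated data. Lists were described by counts and medians with Python 3.11.15 and pandas 2.3.3. Several list members had no row of their own and were not analysed here, among them *Fosl1*, *Rag1*, *Nfkb1*, *Hsf1* and *Trp53*.

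Members and lists were chosen with earlier results of these data known. Named genes were the 4 markers, the called members with the largest differences in each list (at most 4, any member for the immediate early, feedback, heat shock and integrated stress response lists), the 15 highest and 15 lowest brighter genes with 1 sign in all 9 pairs, the 10 smallest p between populations and 5 between genotypes, sorting markers and sex-linked genes. MicroRNA genes, *H4c8* and *Vaultrc5* were named after their values were seen, as were members described for their response within populations or for a value that did not pass. Alternatives were other normalisations, a filter on dim rows, the mean of a gene's rows, another prior, left-out arrays or genotypes, and models of the shared source. Replicate numbers paired the arrays because each group held 1 array of each number. Pair differences of 1 genotype correlated between populations at 0.134 to 0.340 in WT, 0.287 to 0.435 in *Gli3*+/- and 0.213 to 0.432 in *Gli3*-/-. Those that differed in both genotype and population correlated at 0.078 to 0.434, so these correlations over all genes do not show pairing by source. Single genes did set a genotype apart in all its populations. *Xist* rose by log2 5.81, 5.88 and 6.10 in the WT pairs and lay between −0.42 and +0.15 in the others. *Hspa1b* rose by 0.53, 0.49 and 0.17 in the *Gli3*+/- pairs and by 1.94 to 2.49 in the others.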

Additional observations from a re-analysis of the deposited data

Results flagged for a closer look

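The replicate difference of 6 of 151 genes held a pair that stood apart from the other 8, by Dixon's test at its 95% value for 9 pairs (chance passes it in about 1 of 20 groups). *Jund* rose by log2 0.33 in *Gli3*-/- CD69- DP cells, where the nearest other pair rose by 0.77. *Tob2* had log2 −0.17 in the same pair, against 0.60 in the nearest. *Cebpb* had 1.11 in *Gli3*+/- CD69+ DP cells, against 0.60. *H2-Ab1* had 1.94 in *Gli3*-/- SP4 cells, against 1.05. *Tnf* had −0.29 in WT CD69+ DP cells, against 0.39, and *Batf2* −0.54 in *Gli3*-/- SP4 cells, against −0.13.

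The size of the replicate difference varied between the 3 populations (limma F test, adjusted over all genes) for genes of TCR signalling and positive selection, namely *Cd69* (adjusted p = 0.00344), *Itm2a* (0.0101), *Nr4a3* (0.0124) and *Bcl2* (0.0233), and for *Dusp6* (0.0229), *Gem* (0.0406) and *Tma16* (0.00344). It varied for cell cycle genes, namely *Ndc80* and *Prr11* (0.00344 each), *Mki67* (0.00361), *Top2a* (0.00405), *Kif11* (0.00627), *Ccnb2* (0.0415) and *Birc5* (0.0499). It varied for genes that differed most in SP4 cells or between SP4 and CD69+ DP cells, namely *Ccl5* (0.00344), *Klrk1* (0.00549), *Mpeg1* (0.00627), *Rgs1* (0.00837) and *Gzmb* (0.0128), and for *Pisd-ps3* (0.0243). Between genotypes it varied for *Xist* (1.94e-10) and *Hspa1b* (0.000341).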

How the results depend on the processing

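No gene named in the text changed direction under an alternative when it was called either as reported or under that alternative. Changes of sign in genes called in neither fit were not counted. Over 151 genes, 4389 values under an alternative stayed on their side of the threshold, 245 lost a call and 24 gained one. Changed genes between replicate numbers, 2569 as reported, numbered 2499 to 2558 under 3 other normalisations, 2600 with the mean of a gene's rows, 3187 with the 6 sources as a random block and 2234 on 6 values. The correlation fitted within the 6 sources was −0.0655. A negative value narrows the SE of the replicate difference, so 3187 does not show that the sources were independent. Changed genes numbered 2246 without the WT arrays, 721 without the *Gli3*+/- arrays (542 higher, 179 lower) and 980 without the *Gli3*-/- arrays (700 higher, 280 lower). Of the 2569, 1838, 706 and 941 stayed called in these 3 fits. Higher calls were 65.3% of all as deposited, 73.0% after median centring, 58.1% after cyclic loess and 51.2% after quantile normalisation. With dim genes left out (11577 tested), 758 genes changed in CD69- DP cells in place of 483. Leaving out 1 array at a time gave 1833 (without either *Gli3*+/- CD69+ DP array) to 2593 genes over all groups, 48 to 669 in CD69- DP, 377 to 1168 in CD69+ DP and 235 to 659 in SP4 cells, 25 to 194 that varied between populations, 2 to 3 between genotypes, 980 to 1869 between CD69+ DP and CD69- DP and 791 to 1870 between SP4 and CD69+ DP cells. Fits without 1 array have fewer pairs. In comparisons of replicate numbers the 2 arrays of a group give the same value because either breaks the pair. Each such fit therefore enters 2 times in the counts of settings or fits that kept a call, and in the 4389, 245 and 24. Comparisons of populations had no block, so there the 2 arrays of a group could give different values. SP4 against CD69+ DP gave 1870 without *Gli3*-/- SP4 replicate 1 and 791 without its replicate 2. With a replicate number effect for each genotype 131 genes varied between populations, in place of 110. The cause of the other changes was not tested.

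With the replicate number as a block, which pairs the arrays, 2673 genes differed between CD69+ DP and CD69- DP cells in place of 1728, and 2475 between SP4 and CD69+ DP cells in place of 1365. The other comparisons are made inside pairs already. Signal limits dim rows, which had no detection call.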
